A study of Homo sapiens with 6 samples.

Results

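The genes described here are MCM2, MCM3, MCM4, MCM5, MCM6, MCM7 and MCM10, the MCM replicative helicase family, measured in the human neuroblastoma line SH-SY5Y. They were chosen by name, with the brightest probe set per gene. Each of the 7 genes had 1 named probe set, so that step removed nothing, and the 7 genes are part of 14884 named genes tested. SH-SY5Y cells received the solvent methanol (mock), securinine at 30 µM or 16F16 at 4 µM, and RNA was taken after 24 h. The series calls both compounds inhibitors of protein disulfide isomerase, and their doses differed. Every group had 2 Affymetrix Human Gene 2.0 ST arrays, 6 in all. The arrays are labelled as biological replicates, and since nothing states how cultures were kept apart, p-values measure only the spread between these samples, which may be technical. SH-SY5Y is 1 established line, and all groups share its growth medium and serum.

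MCM2 to MCM7 are related ATPases that form a ring of 6 different subunits. In G1 phase the origin recognition complex, CDC6 and CDT1 load this ring onto DNA as an inactive pair, a step called licensing. In S phase the kinase CDC7 with DBF4, CDC45 and the GINS proteins turn each ring into the active helicase that unwinds DNA ahead of the polymerases. MCM10 is not an ATPase of this ring, and it binds the assembled helicase and is needed for its activation. Transcription of these genes is known to follow E2F factors and to be high in dividing cells.

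Values are deposited log2 expression values, and a difference of 1 on this scale is a 2-fold difference. Array medians lay between 4.16 and 4.23, and arrays of a group correlated at 0.986 to 0.990 across probe sets. Every MCM gene stood at least 2.07 log2 units above the upper quartile of all probe sets on every array. Of 15 measured markers of noradrenergic neuroblastoma identity, 14 stood above the upper quartile on all 6 arrays. Of 9 measured epithelial, blood and endothelial markers, only KRT18 did so, and KRT5, LYZ, PECAM1 and KDR stood below the median of all probe sets on all 6 arrays. The summed level of the 9 markers was at most 8.09 (log2) on any array and at least 7.86. The summed level of the 15 noradrenergic markers was 14.35 to 14.37 (log2) with mock, 13.93 to 14.02 with securinine and 14.10 to 14.16 with 16F16. This sum follows the brightest markers. Of the 15 markers 7 fell and 1, HAND1, rose with securinine, where CHGA and DDC fell to 21.4% and 24.1% of mock in limma. With 16F16 CHGA, RET, DDC, CHGB and TFAP2B fell, 5 of the 15, and 0 rose. At an adjusted p under 0.05 in limma, 10.6% of all genes fell and 8.40% rose with securinine. The 1 marker that rose with securinine is thus near its background. Only 1.5% of all genes passed in either direction with 16F16. The part of these marker changes in the MCM results was not tested.

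The first comparison asked what securinine changed against mock. MCM expression was lower with securinine for all 7 genes, and 6 of the 7 passed the test, all of them lower. MCM7 fell most, to 53.9% of its mock level, and MCM3 and MCM6 fell to 61.4% and 62.2%. MCM2 fell to 64.7%, MCM5 to 71.6% and MCM10 to 80.6%, and MCM4 was at 81.1% without passing. A gene passed, or was called, at an adjusted p under 0.05 in limma over all 14884 genes. Among all genes 10.6% were called lower and 8.40% higher with securinine. Both securinine arrays lay below both mock arrays for 7 of 7 MCM genes, against 33.9% of all genes. The median difference over the 7 genes was -0.63 on the log2 scale, and over all genes it was -0.04. In a bulk culture, fewer cells in S phase and less MCM RNA per cell cannot be told apart.

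MCM2, MCM3 and MCM5 sit on the side of the ring that holds the gate through which DNA enters. The log2 level of MCM2 was 9.23 and 9.12 on the mock arrays, 8.55 and 8.54 with securinine, and 9.26 and 9.0 with 16F16. Its securinine arrays lay below the other 4, and the 16F16 arrays spanned both mock arrays. MCM2 fell with securinine by 0.63 ± 0.11 (SE, n = 2 arrays per group; limma adjusted p = 0.017).

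MCM3 pairs with MCM5 in the ring. Its log2 level was 10.24 and 10.22 with mock, 9.52 and 9.52 with securinine, and 10.31 and 10.27 with 16F16. The securinine arrays were low and nearly equal, and both 16F16 arrays were slightly above both mock arrays. MCM3 fell with securinine by 0.70 ± 0.074 (limma adjusted p = 0.0049).

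MCM5 forms the gate of the ring together with MCM2. The log2 level of MCM5 was 8.74 and 8.71 with mock, 8.26 and 8.22 with securinine, and 8.72 and 8.69 with 16F16. The 16F16 and mock arrays overlapped, and the securinine arrays were apart from both. MCM5 fell with securinine by 0.48 ± 0.076 (limma adjusted p = 0.012).

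MCM4, MCM6 and MCM7 make up the other part of the ring, which unwinds DNA by itself in biochemical assays. MCM4, whose long tail is a main substrate of CDC7, had log2 levels of 10.03 and 9.98 with mock, 9.74 and 9.66 with securinine, and 10.15 and 10.05 with 16F16. The 3 groups did not overlap, with securinine lowest and 16F16 highest. The securinine difference of MCM4 was -0.30 ± 0.085 and missed the threshold (limma adjusted p = 0.061), with a 95% interval of -0.51 to -0.09.

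MCM6 had log2 levels of 9.44 and 9.47 with mock, 8.80 and 8.74 with securinine, and 9.19 and 9.08 with 16F16. All 3 groups were apart, with 16F16 between mock and securinine. MCM6 fell with securinine by 0.68 ± 0.082 (limma adjusted p = 0.0065).

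MCM7 had log2 levels of 10.49 and 10.50 with mock, 9.62 and 9.60 with securinine, and 10.07 and 9.99 with 16F16. The order was the same as for MCM6, and the gaps between groups were wider than the gap between the arrays of any group. MCM7 fell with securinine by 0.89 ± 0.077 (limma adjusted p = 0.0038).

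MCM10, the activating factor outside the ring, had log2 levels of 9.75 and 9.75 with mock, 9.43 and 9.45 with securinine, and 9.94 and 9.94 with 16F16. The arrays of each group were nearly equal, with securinine lowest and 16F16 highest. MCM10 fell with securinine by 0.31 ± 0.073 (limma adjusted p = 0.038). It had a difference close to that of MCM4, and their 95% intervals were -0.49 to -0.13 and -0.51 to -0.09.

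**Figure D1:**
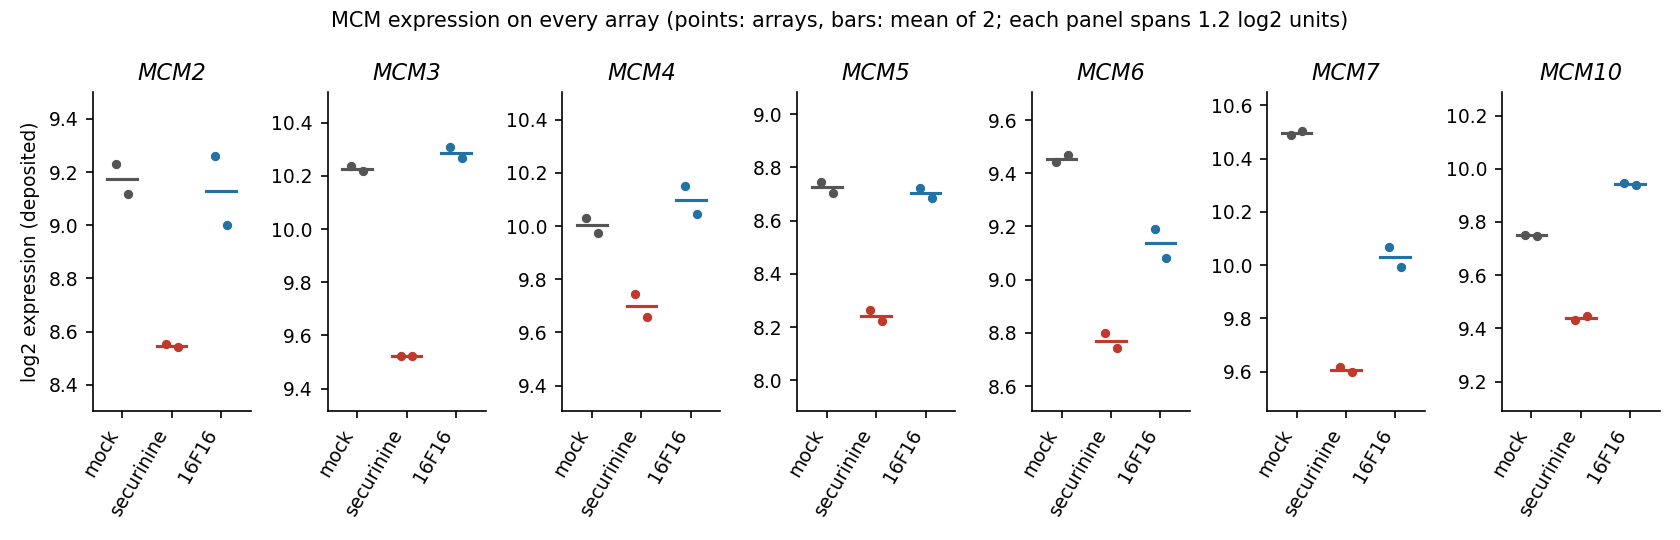
Deposited log2 expression of the 7 MCM genes (vertical axes, each panel spanning 1.2 log2 units) on the mock, securinine and 16F16 arrays (horizontal axes), with points for arrays and bars for the mean of 2. The securinine arrays are the lowest in every panel, and both 16F16 arrays lie below both mock arrays for MCM6 and MCM7 only.

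Differences with securinine spread over 0.59 log2 units from MCM7 to MCM4, with a mean of -0.62 and an SD over genes of 0.20 for the 6 ring subunits. MCM3 and MCM7 were called lower in 14 of 14 alternative analyses and MCM6 in 13, MCM2 and MCM5 in 9 each, MCM10 in 5 and MCM4 in 2. The direction was downward for all 7 genes in all 14, of which only quantile normalization and median centring could have changed it. These 14 are not all separate, since leaving out either 16F16 array gave the same securinine fit as the 4 arrays compared alone. As each MCM gene had 1 probe set, the mean of probe sets left its estimate unchanged. The count of 6 called genes was 3 without mock replicate 1, 2 without mock replicate 2, and 3 without securinine replicate 1 or securinine replicate 2. It was also 3 when all 53617 probe sets were tested.

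The second comparison asked what 16F16 changed against mock, and the MCM genes did not move together. MCM7 stood at 72.4% of its mock level and MCM6 at 80.2%. MCM2, MCM3, MCM4 and MCM5 stood at 96.9%, 104%, 107% and 98.6%, and MCM10 at 114%. With limma 0 of the 7 genes passed, with 3 at an unadjusted p under 0.05, and 1.5% of all genes passed in either direction. Both 16F16 arrays lay below both mock arrays for 2 of the 7 genes (27.7% of all genes) and above them for 3 (24.1% of all genes), and the first of these shares is near its background. The median difference was -0.02 over the 7 genes and -0.01 over all genes. With any 1 of the 6 arrays left out, limma called 0 of all 14884 genes with 16F16, while 2099 to 2904 genes had a p below 0.05 before adjustment.

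The 16F16 difference of MCM7 was -0.47 ± 0.077 (log2, ± SE, 2 arrays a group; limma adjusted p = 0.056), and that of MCM6 was -0.32 ± 0.082 (limma adjusted p = 0.11). Both passed when genes of low level were left out (limma adjusted p = 0.018 and 0.049) and when the variance prior followed intensity (limma adjusted p = 0.00018 and 0.0049). MCM10 was at 0.19 ± 0.073 (limma adjusted p = 0.22), with an interval of 0.01 to 0.37, and it passed with the intensity trend (limma adjusted p = 0.023). These 3 genes are the ones with an unadjusted p under 0.05.

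For the other 4 genes the 95% intervals of the 16F16 difference held 0. They ran from -0.32 to 0.23 for MCM2, -0.12 to 0.24 for MCM3, -0.12 to 0.30 for MCM4 and -0.21 to 0.17 for MCM5. A fall with 16F16 as large as the one measured with securinine (0.63, 0.70, 0.30 and 0.48) lies outside each of these intervals. The 2 16F16 arrays of MCM2 were 9.26 and 9.0, the widest gap within any group of any MCM gene. The MCM2 difference of -0.05 was 0.01 without mock replicate 1 and 0.085 without 16F16 replicate 2.

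**Figure D2:**
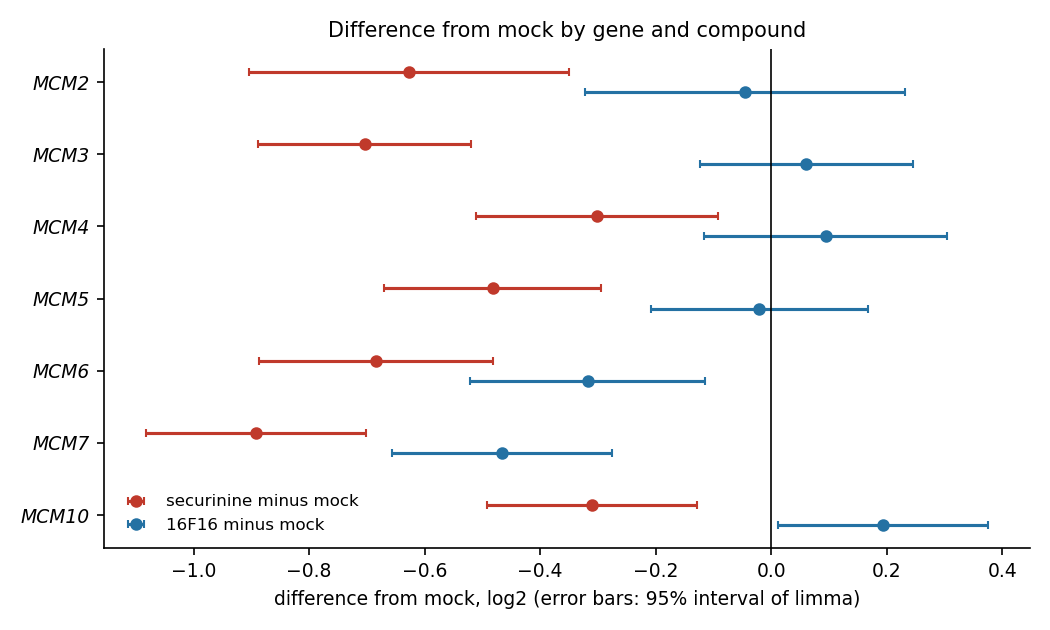
Difference from mock on the log2 scale (horizontal axis) for each MCM gene (vertical axis) with securinine at 30 µM and 16F16 at 4 µM; points are the estimates of limma and error bars their 95% intervals. All 7 securinine intervals lie below 0, and of the 16F16 intervals those of MCM6 and MCM7 lie below 0 and that of MCM10 above it.

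The compounds were then set against each other. MCM expression was higher with 16F16 than with securinine for all 7 genes, by 1.70-fold for MCM3, 1.5-fold for MCM2, 1.42-fold for MCM10 and 1.29-fold to 1.38-fold for MCM4, MCM5, MCM6 and MCM7. In limma 6 of 7 genes were called higher with 16F16, against 5.55% of all genes, and both 16F16 arrays lay above both securinine arrays for 7 of 7 genes, against 29.3% of all genes. This comparison shares the securinine arrays with the first one and the 16F16 arrays with the second, and the doses were 4 and 30 µM. MCM3 had a difference of 0.76 ± 0.074 on the log2 scale (limma adjusted p = 0.0099), and MCM6, at 0.37 ± 0.082, missed the threshold (limma adjusted p = 0.051). The median over the 7 genes was 0.46, and over all genes 0.01. The difference of MCM10 was 0.50 ± 0.073 (limma adjusted p = 0.021).

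Most or all calls between compounds were lost when an array was left out, and also with the replicate block or with all probe sets tested. The reason for these losses was not tested. The count of 6 was 1 without mock replicate 1, mock replicate 2 or 16F16 replicate 2, and 0 without securinine replicate 1, securinine replicate 2 or 16F16 replicate 1. The difference kept its sign for all 7 genes in 14 of 14 alternatives, of which only quantile normalization and median centring could have changed it.

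The promoters of the MCM genes were read because 6 members fell together and the family is known to follow E2F factors. Windows of 300 bases, 250 before and 50 from the start site on, came from RefSeq on GRCh38.p14 and matched 5 of the 7 genes, with 7 windows because MCM7 has 3 start sites. MCM4 and MCM5 are not shown. The stretches below hold the matches to an E2F site, searched on both strands as TTTGGCGC, TTTCGCGC, TTTCCCGC or TTTGCCGC, and to the E-box CACGTG, the site of MYC and related factors. Capitals mark these matches, and neighbouring E2F matches can overlap. They run 5′ to 3′ on the strand of the gene, at chr3:127598381-127598424 (plus strand) for MCM2, chr6:52284739-52284936 (minus strand) for MCM3, chr2:135876502-135876615 (minus strand) for MCM6, chr7:100101399-100101604 (minus strand) for MCM7 and chr10:13161498-13161557 (plus strand) for MCM10. The stretch of MCM10, which holds neither match, is its last 60 bases before the start site.
MCM2: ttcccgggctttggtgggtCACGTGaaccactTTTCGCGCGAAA
MCM3: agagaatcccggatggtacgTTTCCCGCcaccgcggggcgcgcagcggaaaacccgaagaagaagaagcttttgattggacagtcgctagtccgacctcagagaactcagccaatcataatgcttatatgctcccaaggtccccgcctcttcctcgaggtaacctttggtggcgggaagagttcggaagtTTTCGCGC
MCM6: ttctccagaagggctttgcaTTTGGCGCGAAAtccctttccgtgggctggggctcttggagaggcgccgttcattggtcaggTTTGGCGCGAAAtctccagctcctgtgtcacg
MCM7: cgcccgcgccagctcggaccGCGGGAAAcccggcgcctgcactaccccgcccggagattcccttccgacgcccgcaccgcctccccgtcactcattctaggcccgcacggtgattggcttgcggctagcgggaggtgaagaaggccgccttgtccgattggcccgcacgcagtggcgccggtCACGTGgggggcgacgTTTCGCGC
MCM10: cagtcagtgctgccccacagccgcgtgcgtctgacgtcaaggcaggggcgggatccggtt

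The E2F, E-box and CCAAT words were chosen after these promoters were seen, so the shares below are a description and enrichment was not tested. An E2F match was present in a window of 4 of the 5 MCM genes (MCM2, MCM3, MCM6 and MCM7), against 3.99% of 27305 genes with a window. MCM6 had 4 matches in 2 blocks, overlapping within each block, and the nearer block ended 79 bases before the start site. MCM2, MCM3 and MCM7 each had 2 matches, of which at least 1 lay within 14 bases of the start site. For MCM7 they were in the most upstream of its 3 windows. An E-box was present in MCM2 and MCM7, 2 of the 5 genes, against 8.77% of all genes with a window, and ended 6 and 20 bases before the start site. A CCAAT box (CCAAT on either strand) was present in 4 of the 5 genes, against 39.7%. A match is a run of letters and not a measured binding site, and no match says only that these letters are not in this window.

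**Figure D3:**
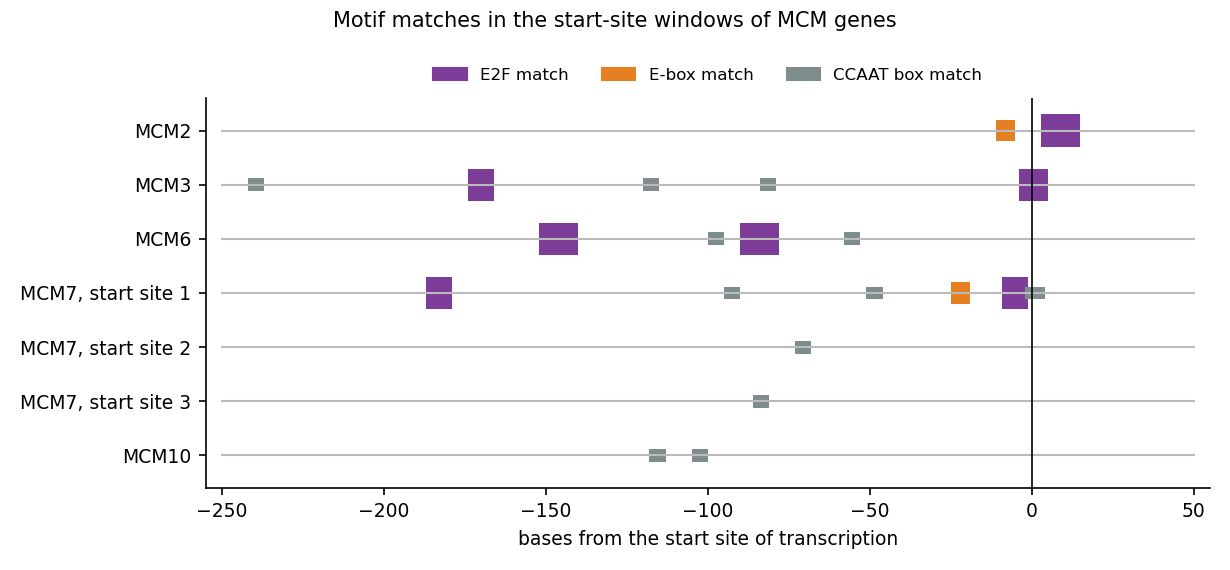
Positions of E2F, E-box and CCAAT matches (coloured boxes) in bases from the start site of transcription (horizontal axis) for the 7 windows of 5 MCM genes (vertical axis), with the 3 start sites of MCM7 numbered from the most upstream. MCM2, MCM3, MCM6 and the first MCM7 window hold E2F matches, and the MCM10 window holds 2 CCAAT boxes and no E2F match.

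Called shares were counted among tested genes with and without an E2F match, and the difference between these classes was not tested. Of 578 tested genes with a match, 13.0% were called lower with securinine, and of 10171 with a window and no match 11.5% were. The shares called higher ran the other way, at 7.79% and 9.33%. The median difference with securinine was -0.03 for the former and -0.04 for the latter. With 16F16 the called shares were 0.346% lower and 1.21% higher among genes with a match, and 0.865% lower and 0.669% higher among those without one. The MCM genes with a match lay well below the securinine median of their class. MCM10, with a window and no match, was also below the median of its class, at -0.31 against -0.04. Of 1187 genes with an E-box, 15.8% were called lower and 11.3% higher with securinine, against 11% and 8.99% of genes without one.

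MCM7 carries 3 microRNA genes in an intron, MIR106B, MIR93 and MIR25, which are made from the same primary transcript. Their mature 5p or 3p products are shown with the seed, bases 2 to 8, in capitals, because miR-93-5p and miR-106b-5p share a seed and so a set of targets, while miR-25-3p has another. The sequences are from RefSeq on GRCh38.p14, all on the minus strand.
hsa-miR-106b-5p: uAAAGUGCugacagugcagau
hsa-miR-93-5p: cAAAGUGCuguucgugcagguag
hsa-miR-25-3p: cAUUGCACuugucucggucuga

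None of the 3 microRNA genes passed in limma with either compound (1 at an unadjusted p under 0.05 with securinine and 0 with 16F16), and their difference from MCM7 was not tested. The values are of probe sets named for these genes, and whether they follow the mature products was not tested. The securinine difference was 0.02 ± 0.10 on the log2 scale for MIR106B, 0.05 ± 0.17 for MIR93 and -0.25 ± 0.085 for MIR25 (limma adjusted p = 0.93, 0.88 and 0.10). With 16F16 they were at 0.02 ± 0.10, -0.08 ± 0.17 and -0.13 ± 0.085 (limma adjusted p = 0.92, 0.84 and 0.45). MIR93 had mean log2 levels of 4.19 to 4.32 in the 3 groups, near the array medians, so its values may lie near background. COPS6, the nearest coding gene downstream of MCM7 in RefSeq order, was at 0.04 ± 0.079 with securinine (limma adjusted p = 0.77).

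Other genes of replication were described from lists chosen with earlier results of these data known. Of 7 measured genes of origin licensing and MCM loading (14 listed), 2 fell with securinine and 0 rose, with a median of -0.0010, against 10.6% of all genes called lower and 8.40% higher. CDC7, the kinase that fires origins, fell by 0.66 ± 0.090 (limma adjusted p = 0.0089), and the loading factor CDT1 by 0.53 ± 0.088 (limma adjusted p = 0.014). CDC6 (-0.0010 ± 0.082), KAT7, an acetyltransferase of licensing (-0.05 ± 0.086), MCMBP, a binding partner of MCM subunits (-0.00090 ± 0.081), and the CDC7 partners DBF4 (0.13 ± 0.097) and DBF4B (0.13 ± 0.093) did not pass. With 16F16 CDT1 rose by 0.58 ± 0.088 (limma adjusted p = 0.049) and 0 of the 7 fell. CDC6 at 0.37 ± 0.082 (limma adjusted p = 0.089) and DBF4 at -0.38 ± 0.097 (limma adjusted p = 0.11) did not pass. CDT1 therefore differed between the compounds by 1.11 log2 units (limma adjusted p = 0.0088), the widest gap among the 7. The CDT1 call with 16F16 was lost with any of the 6 arrays left out (limma adjusted p = 0.12 to 0.24). In securinine, the CDT1 call was lost with any mock or securinine array left out. The CDC7 call was lost without mock replicate 2 or securinine replicate 2. Leaving out a 16F16 array does not change the securinine estimates.

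Of 13 measured genes of helicase assembly and activation (14 listed), 3 fell and 1 rose with securinine, with a median of -0.07. Against 10.6% of all genes called lower and 8.40% higher, the 1 that rose is near the background. The GINS subunits GINS3 and GINS2 fell by 0.65 ± 0.092 and 0.51 ± 0.092, and the fork protection protein TIMELESS by 0.61 ± 0.088. DONSON, a factor of helicase assembly, rose by 0.56 ± 0.12. CDC45, the partner of MCM2 to MCM7 in the active helicase, was at -0.31 ± 0.081 (limma adjusted p = 0.051), GINS1 at -0.06 ± 0.077 and GINS4 at -0.07 ± 0.14. With 16F16 0 of the 13 passed in limma, with 7 at an unadjusted p under 0.05, and the median was 0.15. The checkpoint adaptor CLSPN (0.55 ± 0.10) and the helicase RECQL4 (0.51 ± 0.095) had the lowest adjusted p-values there (0.067 and 0.068 in limma). Between the compounds 5 of the 13 (GINS2, GINS3, TIMELESS, CLSPN and the fork factor WDHD1) were called higher with 16F16, against 5.55% of all genes, and 0 lower. The securinine calls of GINS2 and DONSON were lost with any mock or securinine array left out. Those of GINS3 and TIMELESS were lost with any of these but securinine replicate 2. The 5 calls between the compounds were lost with any array left out.

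At the fork, 3 of 26 listed genes were measured. The flap nuclease FEN1 fell with securinine by 0.42 ± 0.10 (limma adjusted p = 0.041), and the sliding clamp PCNA (-0.18 ± 0.074) and DNA2 (-0.20 ± 0.085) did not pass. This is 1 of 3 called lower, against 10.6% of all genes. The FEN1 call was lost with any of the 6 arrays left out (limma adjusted p = 0.055 to 0.18). With 16F16 all 3 were between 0.09 and 0.21 without passing. Of 7 measured genes of deoxynucleotide synthesis, RRM2B, the ribonucleotide reductase subunit induced by p53, rose with securinine by 0.91 ± 0.11 (limma adjusted p = 0.0068). It was the 1 called higher and 0 were called lower, against 8.40% and 10.6% of all genes, so this count is near its background. The other reductase subunits RRM1 (-0.18 ± 0.079) and RRM2 (0.02 ± 0.082) and the thymidylate synthase TYMS (0.08 ± 0.076) did not pass. The median of the 7 was 0.0012. The RRM2B call held with any of the 6 arrays left out. With 16F16 RRM2B was at 0.44 ± 0.11 and 0 of the 7 passed in limma, with 2 at an unadjusted p under 0.05.

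MCM8 and MCM9 are relatives of the ring subunits that act in homologous recombination and not in licensing. With securinine MCM8 was at 0.26 ± 0.080 (limma adjusted p = 0.077), MCM9 at -0.10 ± 0.097, their partner HROB at 0.04 ± 0.10 and MCMDC2 at 0.19 ± 0.16. With 16F16 these 4 were at 0.16, -0.03, 0.19 and 0.07. None of the 4 passed in limma with either compound (1 at an unadjusted p under 0.05 with securinine and 0 with 16F16). MCMDC2 had mean log2 levels of 2.38 to 2.57, under the lower quartile (2.79 to 2.84) of the arrays.

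**Figure D4:**
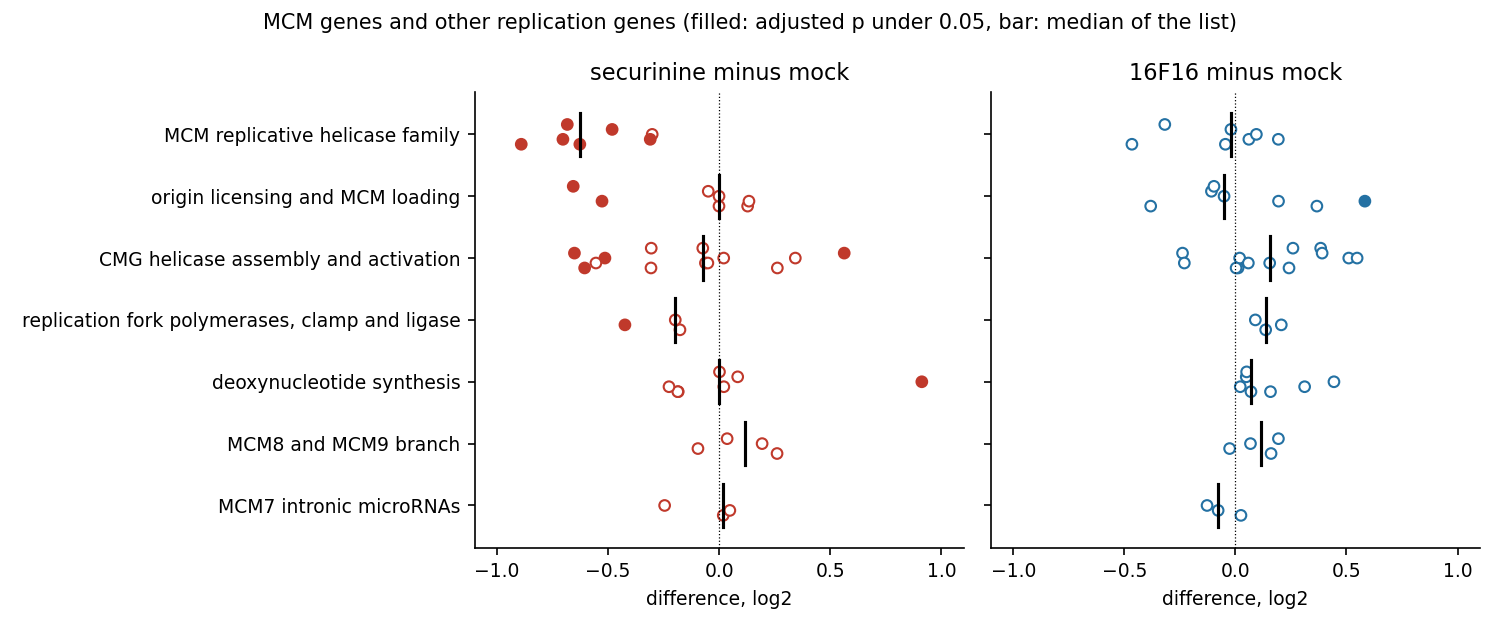
Difference from mock on the log2 scale (horizontal axes) for every measured gene of 7 lists (vertical axis) with securinine (left) and 16F16 (right); filled circles passed limma at an adjusted p under 0.05 and bars are list medians. With securinine the MCM genes have a median of -0.63 and the other lists lie between -0.20 and 0.11, and with 16F16 the MCM median is -0.02.

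Genes known to control the family were called in both directions with securinine. With securinine E2F8 fell by 0.79 ± 0.083, CCNE1 by 0.77 ± 0.092 and CCNE2 by 0.53 ± 0.094. TFDP2, a partner of E2F factors, fell by 0.64 ± 0.080, and E2F7 rose by 0.82 ± 0.084. The E2F partner TFDP1 fell by 0.48 ± 0.087 and cyclin CCND1 rose by 0.53 ± 0.085, which completes the calls with securinine. With 16F16 E2F7 rose by 0.77 ± 0.084 and CCNE2 by 0.70 ± 0.094. RBL1 at 0.50 ± 0.083, E2F1 at 0.43 ± 0.076 and E2F8 at 0.42 ± 0.083 did not pass (limma adjusted p = 0.057, 0.062 and 0.072). Of 19 measured genes of this list 5 fell (10.6% of all genes) and 2 rose (8.40% of all genes) with securinine, and the second count is near its background. With 16F16 2 rose and 0 fell, against 1.5% of all genes called in either direction. MYC fell by 2.62 ± 0.18 with securinine and fell by 1.65 ± 0.18 with 16F16. Of the 10 calls with securinine in the E2F and MYC lists, those of E2F7, E2F8, CCNE1 and MYC held whichever of the 6 arrays was left out, and the 3 calls with 16F16 were lost with any of the 6 left out. In the MYC list of 7 measured genes, MXI1 also fell with securinine, by 0.56 ± 0.087, and MXD1 rose by 0.57 ± 0.084. Of these 7 genes 2 fell (10.6% of all genes) and 1 rose (8.40% of all genes) with securinine, and the second count is near its background. With 16F16 1 of the 7, MYC, fell and 0 rose, against 1.5% of all genes called in either direction.

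Genes other than the 7 MCM genes with the pattern most like the mean of MCM2 to MCM7 were found by the distance between their securinine and 16F16 differences from mock and the MCM means of -0.62 and -0.12, over the means of 3 groups. Among 9318 coding genes above the median level, the 8 nearest were HADH, ALDH2, UQCC2, TMTC4, FRAS1, ARL6IP5, CXXC4 and DBH, at 0.0055 to 0.023 log2 units. DBH, the enzyme that makes noradrenaline, is also one of the noradrenergic markers. The 5 nearest to MCM10 were FATE1, C15orf40, MME, AK5 and CAST. The likeness is a description over 2 values per gene, and the first 8 all had securinine differences of -0.63 to -0.59. The 16F16 mean covers MCM2 to MCM7 at -0.47 to 0.09 (SD over genes 0.22). A gene near this mean need not be near any single MCM gene.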

How the data were processed

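Total RNA of 6 samples was measured on 6 arrays, 2 in each of 3 groups. The authors deposited log2 expression values of 53617 probe sets per array with no missing value (the submitters' processing notes list RMA and limma). Settings, the array annotation and the genome build are not given in the sources used for this text. Since RMA scales arrays to each other, a shift common to most genes is taken out. Detection calls were not used.

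A platform annotation table gave 16098 probe sets 1 gene symbol, all matched by Entrez identifier to RefSeq (GRCh38.p14), and left 37519 unnamed. The brightest probe set per gene was taken. limma 3.58.1 (R 4.3.3), with lmFit and eBayes on all 6 arrays and group as the only term, had 3 residual and 2.68 prior degrees of freedom. Two-sided p-values received Benjamini-Hochberg adjustment across 14884 genes. The script was tested on simulated data. Errors are standard errors, intervals are unadjusted 95% intervals of limma, and the number of arrays limits precision (median SE 0.11). The members, lists and motifs were chosen with earlier results of these data known, and the motifs after the promoters were seen. List genes named were among the 5 with the lowest adjusted p in either treatment, with all of the MCM8 and MCM9 list and the microRNA list. MCMBP, GINS1, TFDP1, WDHD1, HAND1 and the genes next to MCM genes were added after their values were seen. DBF4B was also added then, though it is among the 5 of its list. Alternatives were a replicate block, each array left out, the 4 arrays compared alone, quantile normalization, median centring, an intensity trend, a filter on low values (mean above the median of all probe sets), the mean of a gene's probe sets, and all probe sets. Their use on list genes was chosen after seeing the data.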

Additional observations from a re-analysis of the deposited data

How the results depend on the processing

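Of 98 values of single MCM genes under the alternatives in each comparison, 76 with securinine, 91 with 16F16 and 45 between the compounds kept direction and side of the threshold. The 2 that changed sign were those of MCM2 with 16F16, at 0.01 without mock replicate 1 and 0.085 without 16F16 replicate 2, in a range of -0.18 to 0.085 with an array left out. Called MCM genes with securinine numbered 6, 3 with all probe sets tested, and 2 to 5 with an array left out. With 16F16 they numbered 0, 3 with the intensity trend and 2 with the filter on low values. Between the compounds they numbered 6, 1 with the replicate block, 0 with all probe sets (7 at an unadjusted p under 0.05), 1 with the 4 arrays compared alone, and 0 to 1 with an array left out. Genes called in all with securinine numbered 2823, and 629 to 2462 with an array left out. With 16F16 they numbered 223, 1808 with the trend, 1056 with the filter, and 0 in limma with the replicate block, all probe sets, the 4 arrays alone or an array left out (2856, 7250, 2904 and 2099 to 2904 at an unadjusted p under 0.05). Between the compounds they numbered 1416, 503 with the replicate block, 3107 with the trend, 2522 with the filter, 0 with all probe sets (9565 at an unadjusted p under 0.05), 324 with the 4 arrays alone, and 0 to 324 with an array left out (3023 to 3763 at an unadjusted p under 0.05). Fewer arrays, or more probe sets in the adjustment, are part of how those alternatives are built; other causes were not tested. Leaving out an array leaves its group with 1, which is assumed to vary like the others. Where that array belongs to the group not compared, the fit repeats that of the 4 arrays compared alone. Arrays of the same replicate number did not deviate together (correlations of -0.061 to 0.024 over 10566 genes), so the numbers were not taken as pairs, and the replicate block left 5 MCM genes called with securinine and 0 with 16F16. Of 546 values of called list genes under these alternatives, which were applied to them after seeing the data, 323 kept their side of the threshold, 223 lost it and 0 changed sign. Quantile normalization and median centring moved the median of all genes by under 0.1 in each comparison and left 6 MCM genes called with securinine.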

Other observations

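Coding genes next to the 7 MCM genes in RefSeq order were looked up after the main results were seen. Of 14 such neighbours 9 were measured, and with securinine 1 rose, 2 fell and 6 did not pass in limma, against 8.40% of all genes called higher and 10.6% lower, so the 1 that rose is near the background. HMOX1, the heme oxygenase induced by oxidants, lies next to MCM5 and rose by 1.26 ± 0.19 on the log2 scale (limma adjusted p = 0.011), while MCM5 fell by 0.48. PODXL2, next to MCM2, fell by 1.13 ± 0.11 (limma adjusted p = 0.0041), and PAQR8, next to MCM3, fell by 0.65 ± 0.12 (limma adjusted p = 0.018). The 6 that did not pass were IL17F at 0.17 ± 0.13, UBE2V2 at -0.02 ± 0.11, LCT at -0.26 ± 0.13, COPS6 at 0.04 ± 0.079, OPTN at -0.20 ± 0.16 and UCMA at -0.14 ± 0.15. With 16F16 none of the 9 passed in limma, and PODXL2 had the lowest adjusted p (-0.54 ± 0.11, limma adjusted p = 0.072).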
